A study of Mus musculus with 16 samples.

Results

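The genes described here are 10 members of the tumour necrosis factor (TNF) superfamily: 6 ligands, *Tnf*, *Lta*, *Ltb*, *Tnfsf10*, *Tnfsf13* and *Tnfsf13b*, and 4 receptors, *Fas*, *Tnfrsf1a*, *Tnfrsf1b* and *Tnfrsf9*. They were taken by name from a table of 23356 genes, in which all 10 were present. TNF superfamily ligands are trimeric proteins, most of them made at the cell surface and some of them shed from it. Their receptors fall into those with a cytoplasmic death domain, which can recruit adaptor proteins and caspases and lead to cell death, and those that recruit TRAF proteins and activate NF-κB. Of the 4 receptors here, *Fas* and *Tnfrsf1a* have a death domain, and *Tnfrsf1b* and *Tnfrsf9* do not. Dendritic cells use these molecules to signal to T cells, B cells and NK cells and to regulate their own survival.

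RNA-seq was performed on bone marrow-derived dendritic cells (BMDCs) of wild-type (WT), *Tmem173*-/-, *Irf1*-/- and *Irf3/7*-/- mice, all labelled with the strain C57BL/6. *Tmem173* encodes STING, the sensor of cyclic dinucleotides, and *Irf1*, *Irf3* and *Irf7* encode transcription factors of the interferon regulatory factor family. Bone marrow was cultured for 6 days with 10 ng/ml GM-CSF and 10 ng/ml IL-4, so that all groups share these cytokines, and the cells were then left without treatment (NT) or given 25 μg/ml c-di-GMP (CDG), a bacterial cyclic dinucleotide that binds STING, for 18 h. This is the dose on the labels, and legends in the study give a higher one. The knockouts were of the whole animal, so that every cell of a culture carried them. There were 16 samples, 2 for each of 8 conditions, and the labels do not say whether the 2 came from separate mice. The authors combined them into 1 value per condition, in FPKM (fragments per kilobase of transcript, relative to the mapped fragments of the library), with a confidence interval given here in parentheses after a value. The spread between samples is therefore not known and no p-value is given.

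In these data a gene was tested in a comparison when it had at least 1 FPKM in either condition, and it was called changed when its FPKM + 0.1 differed more than 2-fold and the intervals did not overlap. Log2 differences were likewise taken after adding 0.1 FPKM, while fold values are ratios of the FPKM themselves. For the 10 genes the interval extended 22.5% to 83.5% to either side of the value, with a median of 27.9%. FPKM values do not tell how deeply each sample was sequenced.

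The targeted genes were examined as a check of the labels. *Tmem173* was at 8.97 FPKM in NT and 7.49 FPKM in CDG *Tmem173*-/- BMDCs, against 103 and 118 FPKM in WT. The column of treated *Tmem173*-/- BMDCs is headed with the letters GDP rather than CDG and was read as c-di-GMP. *Irf7* was at 4.97 FPKM in the treated condition labelled *Irf3/7*-/- and at 687 FPKM in treated WT BMDCs. *Irf3*, at 7.74 FPKM in NT *Irf3/7*-/- BMDCs against 19.9 FPKM in NT WT, was at 20.2 FPKM in the treated condition labelled *Irf3/7*-/- against 15.8 FPKM in treated WT, which goes against that label. *Irf1* was at 25.9 FPKM in NT *Irf1*-/- BMDCs but at 116 FPKM in the treated condition labelled *Irf1*-/-, against 245 FPKM in treated WT. Which exons were deleted is not given in the sources used here, so a gene total may hold reads from outside the deleted part.

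Of 10 dendritic cell markers, 8 to 10 were at 1 FPKM or more in each condition, and their sum ranged from 1266 FPKM in NT *Irf1*-/- to 3377 FPKM in treated WT BMDCs. *Itgax* was at 135 to 369 FPKM, whereas *Xcr1*, a marker of cross-presenting dendritic cells, was below 1 FPKM in 5 of 8 conditions. *H2-Aa*, an MHC class II chain, was lower in *Irf1*-/- than in WT BMDCs, at 364 against 1031 FPKM without and 462 against 1424 FPKM with c-di-GMP. The maturation markers *Ccr7* and *Cd83*, at 1257 and 325 FPKM in treated WT BMDCs, were lower in treated *Tmem173*-/- BMDCs, at 114 FPKM for *Ccr7* and 63.8 FPKM for *Cd83*. Without treatment they were also lower, at 130 against 265 FPKM for *Ccr7* and 67.2 against 143 FPKM for *Cd83*. Between these treated conditions 4 of the 10 markers were called lower and 2 higher, against 26.3% of all genes. The 2 higher were *Itgax* (328 against 135 FPKM) and *Clec9a* (2.29 against 0.470 FPKM). Markers of other cells were present as well and differed between genotypes. The summed FPKM of 7 NK cell markers was 687 in NT WT and 677 in CDG WT BMDCs. It was 3.98 and 3.75 for the *Tmem173*-/- genotype, 17.9 and 28.9 for *Irf1*-/-, and 700.3 and 2171 for *Irf3/7*-/-. *Gzma* and *Gzmb* made up most of this sum in WT and *Irf3/7*-/- BMDCs, at 349 and 321 FPKM in NT WT. The sum of 10 T cell markers took the same order among treated cells, at 15.6 FPKM for *Tmem173*-/-, 57.8 for *Irf1*-/-, 93.9 for WT and 268 for *Irf3/7*-/-, but *Thy1* made up 47.2 of the 57.8 FPKM in *Irf1*-/- BMDCs. *Cd3e*, a subunit of the T cell receptor complex, was there at 0.479 FPKM against 5.41 FPKM in treated WT, and *Cd4* stayed at or below 0.154 FPKM in all conditions. The sum of 7 neutrophil markers was 1402 and 1104 FPKM in NT and CDG *Tmem173*-/- BMDCs. In the other 6 conditions it ranged from 87.9 to 161 FPKM. In RNA from whole cultures, fewer cells of a type and less RNA per cell cannot be told apart.

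Among the 6 member ligands, *Tnf*, which encodes the founding cytokine of the family, was the most abundant in 8 of 8 conditions. Its levels are given in fragments per kilobase, so that they can be compared between genes. *Tnf* (chr17:35199391-35201996, minus strand, GRCm38) was at 44.6 FPKM (33.6 to 55.7) in NT WT BMDCs and 91.1 FPKM (68.4 to 114) in treated WT BMDCs. It was at 77.1 and 76.1 FPKM in NT and CDG *Tmem173*-/-, 65.9 and 75.4 FPKM in NT and CDG *Irf1*-/-, and 83.1 FPKM in NT *Irf3/7*-/- BMDCs. In the treated condition labelled *Irf3/7*-/- it reached 355 FPKM (266 to 443). That value stood apart from the other 7, whose intervals each overlapped the next in order. *Tnf* was thus called higher with c-di-GMP in WT (2.04-fold, log2 difference 1.03) and in the condition labelled *Irf3/7*-/- (4.27-fold, log2 difference 2.09), and was not called within *Irf1*-/- (log2 difference 0.20) or *Tmem173*-/- BMDCs (log2 difference -0.02). The WT call lies just past the threshold.

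Summed NK cell, T cell, and basophil and mast cell markers were highest where *Tnf* was highest, but did not follow it throughout. In WT BMDCs, where *Tnf* rose with c-di-GMP, the NK cell sum was 687 FPKM in NT and 677 FPKM in CDG cells. The T cell sum was 166 FPKM in NT and 93.9 FPKM in CDG WT BMDCs. In the treated condition labelled *Irf3/7*-/-, where *Tnf* was highest, the 7 NK cell markers summed to 2171 FPKM, with 5 of them at 1 FPKM or more, and the 10 T cell markers summed to 268 FPKM, with 9 of them at 1 FPKM or more. *Gzmb* (1242 FPKM) and *Gzma* (900 FPKM), granule proteases of NK cells and cytotoxic T cells, made up most of that NK cell sum. With c-di-GMP in *Irf3/7*-/- BMDCs, 4 of the 7 NK cell markers were called higher. The 2 called lower were *Klrb1c*, from 4.05 to 0.618 FPKM, and *Eomes*, from 13.6 to 6.36 FPKM. *Ncr1*, a defining receptor of NK cells, was at 0.661 FPKM in the treated condition. The 6 basophil and mast cell markers summed to 151 FPKM there, against 46.8 FPKM in treated WT BMDCs, and 6 of 6 were called higher. Without treatment their sum was 97.9 FPKM in *Irf3/7*-/- and 43.1 FPKM in WT BMDCs. In *Tmem173*-/- BMDCs, *Tnf* was between its NT and CDG WT levels while 2 of the 7 NK cell markers were listed at 0 in NT cells and 1 in treated cells. There 6 macrophage markers summed to 604 FPKM in NT cells against 172 FPKM in NT WT, beside *Tnf* at 77.1 and 44.6 FPKM. The macrophage sum was 414 FPKM in treated WT and 326 FPKM in the treated condition labelled *Irf3/7*-/-, where *Tnf* was highest. The part of other cells in the *Tnf* level was not tested.

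**Figure D1:**
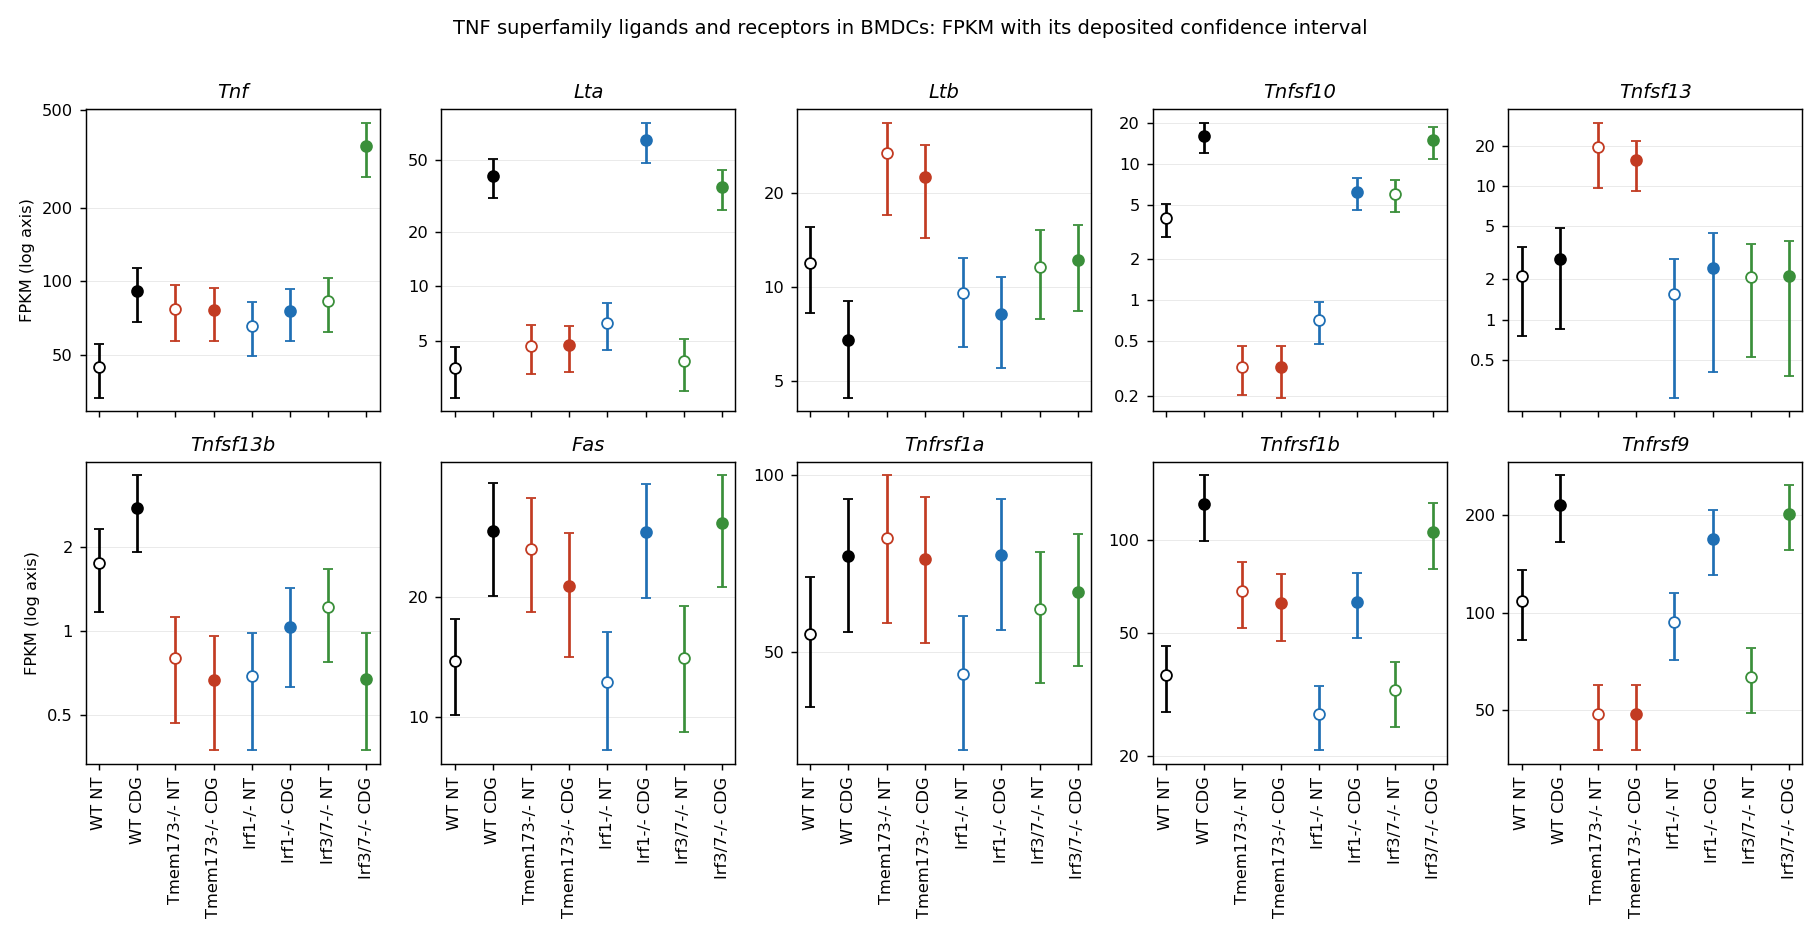
FPKM (log axis) of the 10 TNF superfamily genes in NT (open circles) and c-di-GMP-treated (CDG, filled circles) BMDCs of 4 genotypes, with the deposited confidence interval as the bar; each circle combines 2 samples. *Tnf* in the treated condition labelled *Irf3/7*-/- (355 FPKM) lies above the other 7 conditions, *Tnfsf10* is at 0.33 FPKM in *Tmem173*-/- BMDCs, and *Tnfrsf1a* stays between 45.8 and 78.2 FPKM.

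*Lta* encodes lymphotoxin-α, which is secreted as a homotrimer that binds the TNF receptors. It had the largest induction of the 10 genes in WT BMDCs. *Lta* (chr17:35203165-35205351, minus strand) was at 3.52 FPKM (2.42 to 4.63) in NT WT and 40.9 FPKM (30.8 to 51.0) in treated WT BMDCs, an 11.6-fold rise. It was at 4.68 and 4.71 FPKM in NT and CDG *Tmem173*-/-, 6.29 and 64.8 FPKM in *Irf1*-/-, and 3.87 and 35.6 FPKM in *Irf3/7*-/- BMDCs. The 3 treated conditions with *Tmem173* stood above the 5 others with no overlap of intervals. The rise was 10.3-fold in the condition labelled *Irf1*-/- and 9.19-fold in that labelled *Irf3/7*-/-, which on the log2 scale is 95.4% and 90.4% of the WT change. That share was 0.277% in *Tmem173*-/- BMDCs. The 11.6-fold rise ranked 131 among the 11201 genes tested in WT BMDCs, counted from the largest rise.

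*Ltb*, whose product joins lymphotoxin-α in a surface heterotrimer that binds the lymphotoxin-β receptor, behaved otherwise. *Ltb* (chr17:35194507-35196305, plus strand) was at 11.9 FPKM (8.28 to 15.5) in NT WT and 6.75 FPKM (4.43 to 9.04) in treated WT BMDCs. It was at 26.7 and 22.4 FPKM in NT and CDG *Tmem173*-/-, 9.54 and 8.18 FPKM in *Irf1*-/-, and 11.6 and 12.1 FPKM in *Irf3/7*-/- BMDCs. It was not called with c-di-GMP in any of the 4 genotypes. It was called higher in *Tmem173*-/- than in WT BMDCs, 2.24-fold without treatment and 3.31-fold with c-di-GMP. *Tnf*, *Lta* and *Ltb* lie next to each other within 10845 bases, with 1168 bases between *Tnf* and *Lta* and 3085 bases between *Ltb* and *Tnf*. Across the 8 conditions, Pearson's r of the log2 levels was 0.511 between *Tnf* and *Lta*, -0.0329 between *Tnf* and *Ltb* and -0.611 between *Lta* and *Ltb*, as a description of these conditions. The 8 points share libraries and genotypes, and no test was made.

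*Tnfsf10* encodes TRAIL, a ligand that engages death receptors and is inducible by interferons. It varied the most of the 10 genes, 49.6-fold between its highest and lowest condition. *Tnfsf10* (chr3:27317077-27339665, plus strand) was at 4.03 FPKM (2.90 to 5.12) in NT WT and 16.2 FPKM (12.1 to 20.1) in treated WT BMDCs. It was at 0.326 FPKM in both NT and CDG *Tmem173*-/- BMDCs, at 0.722 and 6.27 FPKM in NT and CDG *Irf1*-/-, and at 6.05 and 15.0 FPKM in *Irf3/7*-/- BMDCs. Levels in *Tmem173*-/- BMDCs were low with or without c-di-GMP, and those of the condition labelled *Irf1*-/- were below WT in either state. The rise with c-di-GMP was 4.02-fold in WT, 8.69-fold in the condition labelled *Irf1*-/- and 2.48-fold in that labelled *Irf3/7*-/-. Treated *Tnfsf10* was 49.5-fold lower in *Tmem173*-/- and 2.58-fold lower in the condition labelled *Irf1*-/- than in WT, and was not called in that labelled *Irf3/7*-/- (log2 difference -0.11). The NK and T cell marker sums given above were also low in *Tmem173*-/- and *Irf1*-/- BMDCs. In WT BMDCs, where *Tnfsf10* rose with c-di-GMP, the NK cell sum was 687 FPKM in NT and 677 FPKM in CDG cells. The T cell sum was 166 FPKM in NT and 93.9 FPKM in CDG WT BMDCs. The part of these cells in the *Tnfsf10* levels was not tested.

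*Tnfsf13* and *Tnfsf13b* encode APRIL and BAFF, which support the survival of B cells and plasma cells. *Tnfsf13* (chr11:69682577-69696098, minus strand) was at 2.13 and 2.86 FPKM in NT and CDG WT, 1.55 and 2.44 FPKM in *Irf1*-/-, and 2.10 and 2.12 FPKM in *Irf3/7*-/- BMDCs. In *Tmem173*-/- BMDCs it was at 19.7 FPKM (9.68 to 29.6) without and 15.5 FPKM (9.18 to 21.8) with c-di-GMP, 9.25-fold and 5.41-fold above WT. These levels are uncertain, since the deposited locus of *Tnfsf13* overlaps *Tnfsf12* and *BC096441* and its intervals extended 40.8% to 83.5% to either side. *Tnfsf12* was at 33.2 FPKM in NT *Tmem173*-/- and 12.6 FPKM in NT WT BMDCs and was also called higher there. Beside the levels of *Ltb* and *Tnfsf13*, the 7 neutrophil markers summed to 1402 FPKM and the 6 B cell markers to 10.7 FPKM in NT *Tmem173*-/- BMDCs, against 145 and 4.23 FPKM in NT WT, and their part in these results was not tested. Of the 6 B cell markers, 4 were at 1 FPKM or more in *Tmem173*-/- BMDCs and 1 in WT BMDCs.

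*Tnfsf13b* (chr8:10006633-10035999, plus strand) was, with *Tnfsf13*, one of the least abundant members in treated WT BMDCs. It was at 1.75 FPKM (1.17 to 2.32) in NT and 2.77 FPKM (1.92 to 3.61) in treated WT, at 0.799 and 0.667 FPKM in *Tmem173*-/-, 0.690 and 1.04 FPKM in *Irf1*-/-, and 1.22 and 0.675 FPKM in *Irf3/7*-/- BMDCs. The 3 treated knockouts all lay below treated WT, and *Tnfsf13b* was the only member called lower in each of them, by 4.15-fold in *Tmem173*-/-, 2.67-fold in the condition labelled *Irf1*-/- and 4.10-fold in that labelled *Irf3/7*-/-. It was not called with c-di-GMP within any genotype, with log2 differences of 0.63 in WT and -0.77 in the condition labelled *Irf3/7*-/-. At levels near 1 FPKM these calls depend on the minimum: with a minimum of 5 FPKM the gene is not tested. With a pseudocount of 1 FPKM it is no longer called in the treated condition labelled *Irf1*-/- (log2 difference -0.89), nor in NT *Tmem173*-/- (-0.61) or NT *Irf1*-/- BMDCs (-0.70) against NT WT.

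**Figure D2:**
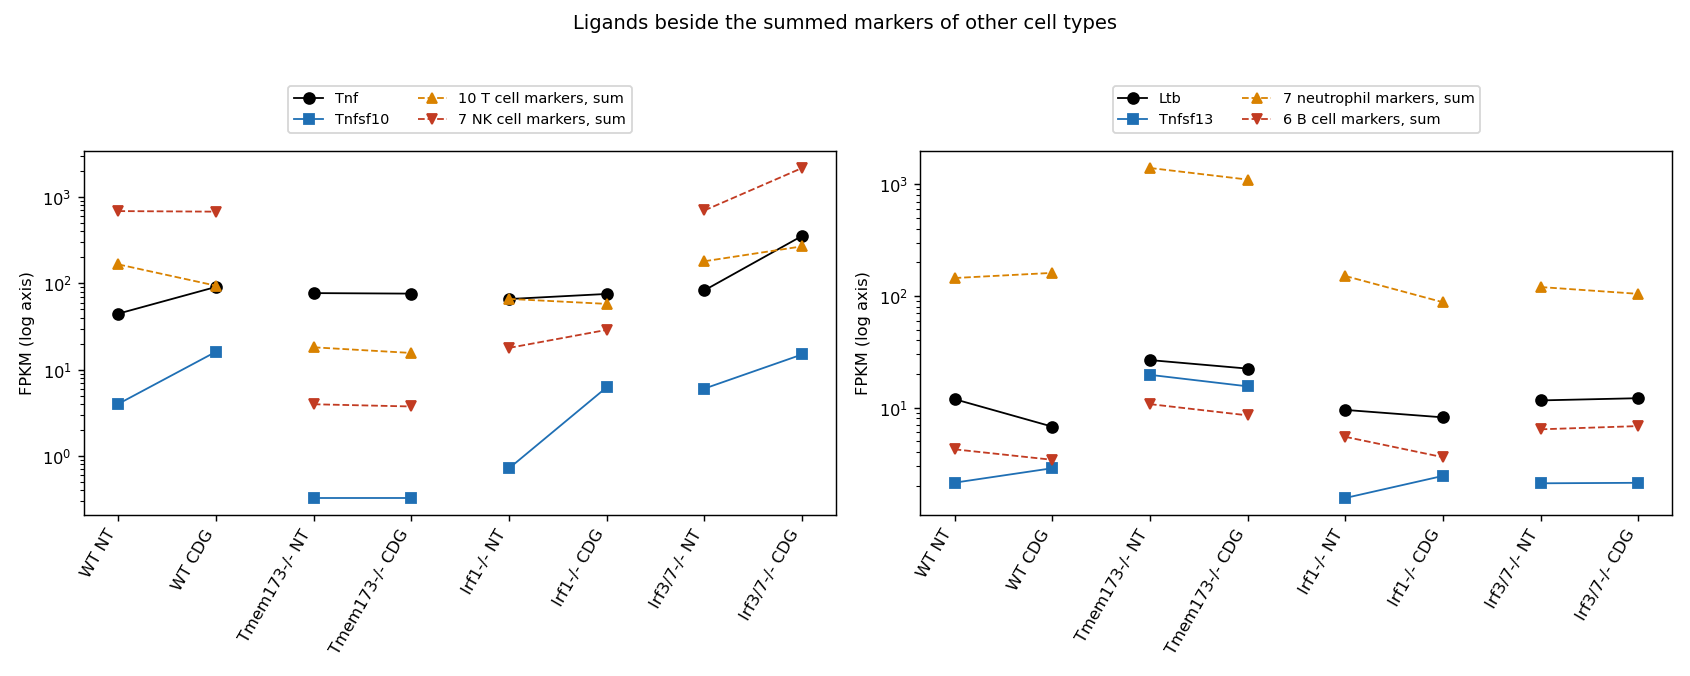
FPKM (log axis) of 4 ligands (solid lines) and summed FPKM of marker genes of other cell types (dashed lines) in the 8 conditions; lines join the NT and CDG condition of a genotype. The NK cell sum is lowest in *Tmem173*-/- BMDCs (3.98 and 3.75 FPKM) and highest in the treated condition labelled *Irf3/7*-/- (2171 FPKM), and the neutrophil sum is highest in *Tmem173*-/- BMDCs (1402 and 1104 FPKM).

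Among the 4 member receptors, *Tnfrsf9*, a costimulatory receptor, was the most abundant in treated WT BMDCs. *Tnfrsf9* (chr4:150920155-150946102, plus strand) was at 109 FPKM (82.3 to 135) in NT and 216 FPKM (166 to 266) in treated WT BMDCs. It was at 48.8 and 48.9 FPKM in *Tmem173*-/-, 93.4 and 169 FPKM in *Irf1*-/-, and 63.5 and 202 FPKM in *Irf3/7*-/- BMDCs. Both *Tmem173*-/- conditions were at the bottom of the order and the 3 other treated conditions at the top. The WT log2 difference with c-di-GMP of 0.99 fell just short of the threshold although the intervals did not overlap. A call with c-di-GMP was made only in the condition labelled *Irf3/7*-/- (3.19-fold). Against WT, *Tnfrsf9* was called lower in *Tmem173*-/- BMDCs, by 2.23-fold without and 4.41-fold with c-di-GMP. Its ligand gene *Tnfsf9* rose from 3.08 to 18.2 FPKM in WT BMDCs.

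*Tnfrsf1b* encodes the TNF receptor without a death domain, which signals through TRAF proteins. *Tnfrsf1b* (chr4:145212368-145246870, minus strand) was at 36.6 FPKM (27.9 to 45.3) in NT and 130.1 FPKM (99.0 to 161) in treated WT BMDCs. It was at 68.2 and 62.3 FPKM in *Tmem173*-/-, 27.4 and 63.0 FPKM in *Irf1*-/-, and 32.6 and 106 FPKM in *Irf3/7*-/- BMDCs. It rose 3.56-fold in WT, 2.30-fold in the condition labelled *Irf1*-/- and 3.24-fold in that labelled *Irf3/7*-/-, or 65.6% and 92.6% of the WT log2 change in these knockouts. Treated *Tnfrsf1b* was 2.09-fold lower in *Tmem173*-/- and 2.07-fold lower in the condition labelled *Irf1*-/- than in WT BMDCs. Both calls lie just past the threshold. In *Tmem173*-/- BMDCs the level without treatment was above that of NT WT (log2 difference 0.90, intervals apart, not called) and there was no call with c-di-GMP (log2 difference -0.13). Macrophage markers, of which 6 were in the table, also differed between these conditions and followed *Tnfrsf1b* in some of them. With c-di-GMP their sum rose from 172 to 414 FPKM in WT and from 150 to 326 FPKM in *Irf3/7*-/- BMDCs. In NT *Tmem173*-/- BMDCs, where *Tnfrsf1b* was above NT WT, the sum was 604 FPKM. Other conditions differed from this. The sum was 146 FPKM in the treated condition labelled *Irf1*-/-, 414 FPKM in treated WT and 554 FPKM in treated *Tmem173*-/- BMDCs. It was thus above treated WT in treated *Tmem173*-/- BMDCs, where *Tnfrsf1b* was below. From NT to CDG *Irf1*-/- BMDCs the sum went from 188 to 146 FPKM, while *Tnfrsf1b* rose. Among the 6 markers, *Cd14* was at 12.9 against 181 FPKM, and *Mertk* at 4.85 against 16.9 FPKM, in the treated condition labelled *Irf1*-/- against treated WT. Their part in the *Tnfrsf1b* levels was not tested.

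*Tnfrsf1a* encodes the TNF receptor with a death domain. *Tnfrsf1a* (chr6:125349723-125362483, plus strand) was at 53.6 and 72.8 FPKM in NT and CDG WT, 78.2 and 71.8 FPKM in *Tmem173*-/-, 45.8 and 73.1 FPKM in *Irf1*-/-, and 59.2 and 63.3 FPKM in *Irf3/7*-/- BMDCs. Neighbouring conditions in the order of levels overlapped in 7 of 7 pairs, and the highest level was 1.71-fold above the lowest. It was called in 0 of 11 comparisons, the only member of which this was so. The WT intervals allow a log2 change with c-di-GMP between -0.31 and 1.17.

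*Fas* (chr19:34290659-34327770, plus strand) encodes the receptor of Fas ligand. It was at 13.9 FPKM (10.1 to 17.6) in NT and 29.3 FPKM (20.2 to 38.7) in treated WT BMDCs, at 26.4 and 21.4 FPKM in *Tmem173*-/-, 12.3 and 29.1 FPKM in *Irf1*-/-, and 14.1 and 30.8 FPKM in *Irf3/7*-/- BMDCs. It rose in WT (2.11-fold), in the condition labelled *Irf1*-/- (2.37-fold) and in that labelled *Irf3/7*-/- (2.19-fold). These changes correspond to 116% of the WT log2 change in the former and 105% in the latter knockout. *Fas* did not pass the threshold with c-di-GMP in *Tmem173*-/- BMDCs (log2 difference -0.30), and the level without treatment was 1.90-fold above that of NT WT, which was not called. Treated *Fas* was not called in any knockout against treated WT.

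To ask which members respond to c-di-GMP, treated and untreated BMDCs were compared within each genotype. In WT BMDCs 5 of the 10 members were called higher and 0 lower, against 20.5% of all 11201 genes tested called in either direction. These were *Lta*, *Tnfsf10*, *Tnfrsf1b*, *Fas* and *Tnf*, with log2 differences from 3.50 to 1.03. The median log2 difference was 1.01 over the members and 0.00 over all genes tested. In *Tmem173*-/- BMDCs 0 of 10 members were called, of which 8 passed the filter, against 0.0552% of genes (6 of 10867), and the log2 differences of the members tested lay between -0.34 and 0.01. *Tnfsf10* and *Tnfsf13b* were below 1 FPKM in both *Tmem173*-/- conditions and were not tested there. In the condition labelled *Irf1*-/- 4 members were called, all higher, against 17.5% of genes, namely the WT set without *Tnf*. In that labelled *Irf3/7*-/- 6 were called, all higher, against 17.9% of genes, namely the WT set and *Tnfrsf9*. The share of the WT log2 change in *Tnf* was 19.1% in the condition labelled *Irf1*-/- and 204% in that labelled *Irf3/7*-/-. The intervals of *Irf1*-/- and WT BMDCs overlapped both without treatment (65.9 and 44.6 FPKM) and with it (75.4 and 91.1 FPKM), and the difference between the 2 shares was not tested.

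**Figure D3:**
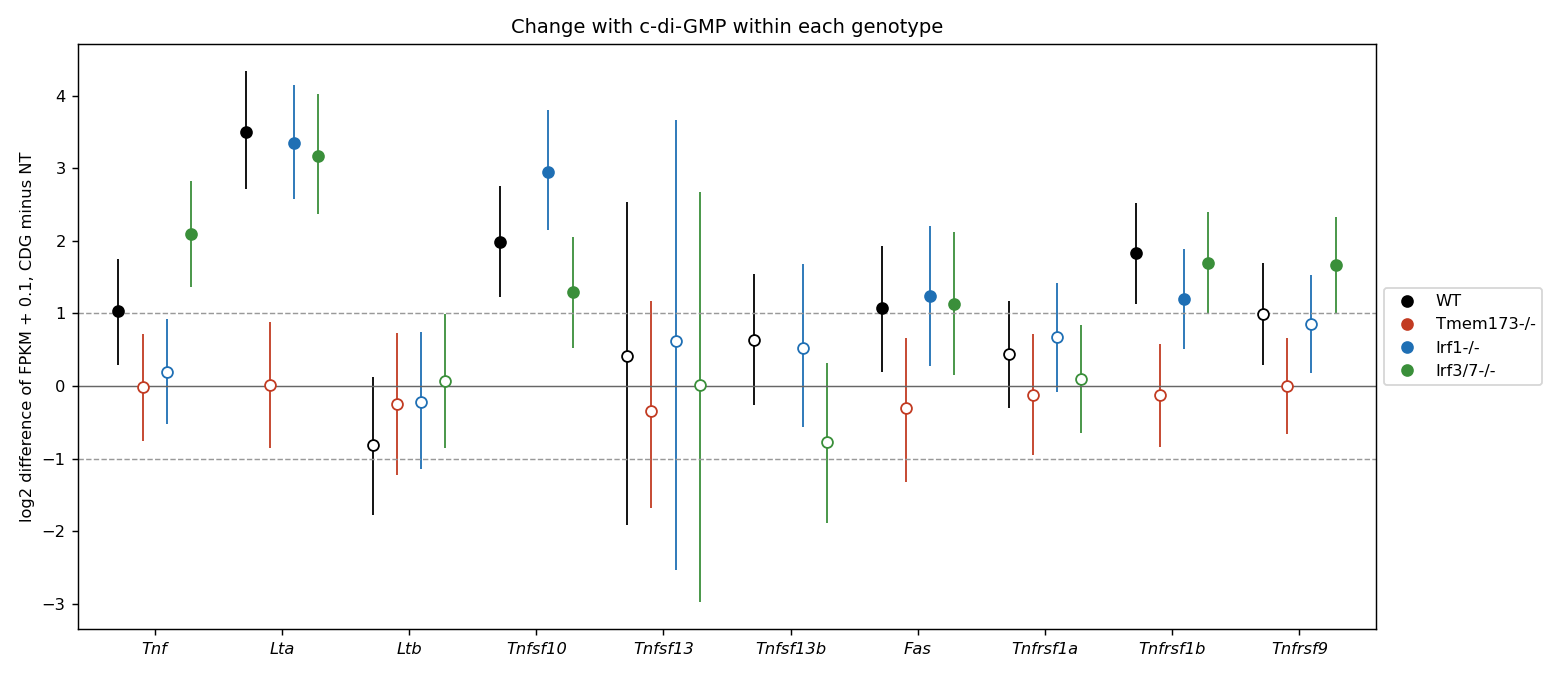
Log2 difference of FPKM + 0.1 between treated and untreated BMDCs for the 10 genes in 4 genotypes (colours); filled circles were called, bars span the differences that the deposited intervals allow, and dashed lines mark 2-fold. The *Tmem173*-/- circles lie near 0, between -0.34 and 0.01, and *Lta* rises by 3.17 to 3.50 in the other 3 genotypes.

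To ask which factors the treated levels depend on, each treated knockout was compared with treated WT BMDCs. The 3 comparisons share the treated WT condition. In *Tmem173*-/- BMDCs 7 members were called, 5 lower and 2 higher, against 26.3% of genes in either direction. The 5 lower were *Tnfsf10*, *Lta*, *Tnfrsf9*, *Tnfsf13b* and *Tnfrsf1b*, with log2 differences from -5.25 to -1.06, and the 2 higher were *Tnfsf13* (2.40) and *Ltb* (1.71). *Tnf*, *Fas* and *Tnfrsf1a* had log2 differences of -0.26, -0.45 and -0.02 and were not called. In the condition labelled *Irf1*-/- 3 members were called, all lower, against 7.56% of genes, namely *Tnfsf10* (-1.35), *Tnfsf13b* (-1.34) and *Tnfrsf1b* (-1.05). In that labelled *Irf3/7*-/- 2 members were called, against 7.30% of genes, namely *Tnf* higher (1.96) and *Tnfsf13b* lower (-1.89). *Lta* was called in neither of these, with log2 differences of 0.66 and -0.20.

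**Figure D4:**
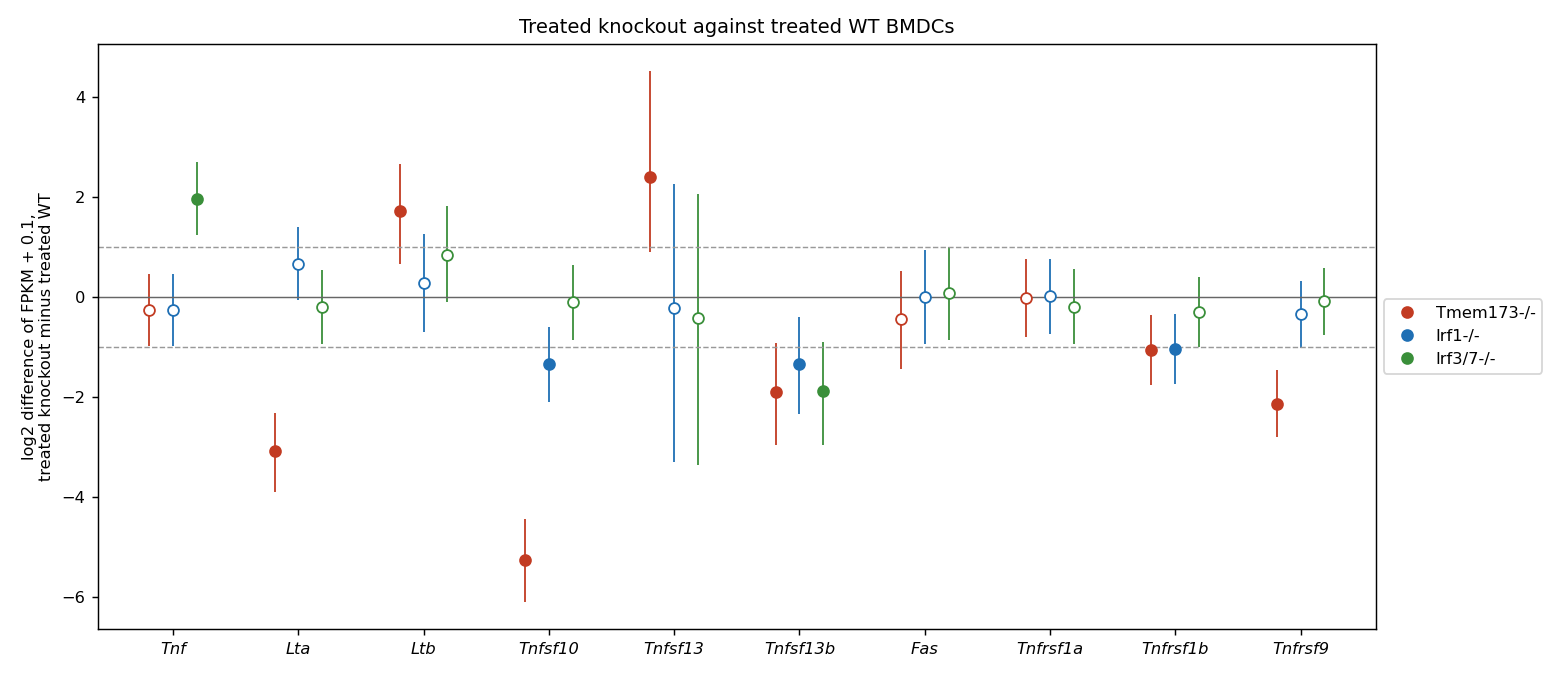
Log2 difference of FPKM + 0.1 between each treated knockout and treated WT BMDCs for the 10 genes; colours give the knockout, filled circles were called, bars span the differences that the deposited intervals allow, and dashed lines mark 2-fold. *Tnfsf10* (-5.25) and *Lta* (-3.09) are lowest in *Tmem173*-/- BMDCs, and *Tnf* is higher in the condition labelled *Irf3/7*-/- (1.96).

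Some of these differences were present without treatment. In NT *Tmem173*-/- against NT WT BMDCs 5 members were called, against 11.0% of genes. *Tnfsf13* and *Ltb* were higher, and *Tnfsf10* (12.3-fold), *Tnfrsf9* (2.23-fold) and *Tnfsf13b* (2.19-fold) were lower. In NT *Irf1*-/- BMDCs 2 members were called, against 4.78% of genes, and both were lower, *Tnfsf10* by 5.58-fold and *Tnfsf13b* by 2.54-fold. Of the 3 members lower in the treated condition labelled *Irf1*-/-, *Tnfrsf1b* was the one not called without treatment (log2 difference -0.42). In NT *Irf3/7*-/- BMDCs 0 members were called, against 2.04% of genes. *Tnf* was there 1.86-fold above NT WT with intervals apart, short of the threshold. *Tnfrsf9*, at 63.5 against 109 FPKM, was 1.71-fold lower (log2 difference -0.78) with intervals apart, also short of it.

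A direct comparison of the treated conditions labelled *Irf1*-/- and *Irf3/7*-/- called 2 members lower in the former and 0 higher, against 9.84% of genes. These were *Tnf*, at 75.4 against 355 FPKM (4.70-fold lower), and *Tnfsf10*, at 6.27 against 15.0 FPKM (2.40-fold lower). *Lta*, at 64.8 against 35.6 FPKM, and *Tnfrsf1b*, at 63.0 against 106 FPKM, had intervals apart but differed by less than 2-fold. Both directions of difference between these knockouts were thus present among the members, although the higher level of *Lta* was not called.

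The promoters of the 3 members called lower in the treated condition labelled *Irf1*-/- are shown with that of *Tnf*, which was called in the condition labelled *Irf3/7*-/- and not in that labelled *Irf1*-/-. Each runs 5′ to 3′ from 250 bases before a RefSeq start site to 50 bases from it, in GRCm38.p6. Where RefSeq lists several, the site nearest the 5′ end of the deposited locus was taken. Capitals mark matches on either strand to AANNGAAA, the letters shared by many binding sites of interferon regulatory factors.
Tnfsf10, chr3:27316827-27317126, plus strand: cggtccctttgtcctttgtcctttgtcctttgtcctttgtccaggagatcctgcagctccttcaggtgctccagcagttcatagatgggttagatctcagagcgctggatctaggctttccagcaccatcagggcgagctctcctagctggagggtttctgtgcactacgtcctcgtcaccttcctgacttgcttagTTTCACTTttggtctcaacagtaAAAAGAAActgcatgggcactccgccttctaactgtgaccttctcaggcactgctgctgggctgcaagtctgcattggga
Tnfsf13b, chr8:10006383-10006682, plus strand: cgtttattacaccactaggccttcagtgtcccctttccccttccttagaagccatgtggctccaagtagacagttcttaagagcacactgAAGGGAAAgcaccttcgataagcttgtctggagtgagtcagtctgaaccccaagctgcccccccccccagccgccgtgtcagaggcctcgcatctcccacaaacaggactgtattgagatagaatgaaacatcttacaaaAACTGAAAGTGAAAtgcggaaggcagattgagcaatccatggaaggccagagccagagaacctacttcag
Tnfrsf1b, chr4:145246821-145247120, minus strand: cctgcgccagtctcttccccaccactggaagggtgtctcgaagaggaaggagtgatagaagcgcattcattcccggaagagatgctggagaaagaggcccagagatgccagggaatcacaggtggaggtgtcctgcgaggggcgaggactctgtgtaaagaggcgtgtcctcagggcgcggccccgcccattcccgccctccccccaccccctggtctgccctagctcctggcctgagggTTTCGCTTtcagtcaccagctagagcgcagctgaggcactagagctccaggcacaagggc
Tnf, chr17:35201958-35202257, minus strand: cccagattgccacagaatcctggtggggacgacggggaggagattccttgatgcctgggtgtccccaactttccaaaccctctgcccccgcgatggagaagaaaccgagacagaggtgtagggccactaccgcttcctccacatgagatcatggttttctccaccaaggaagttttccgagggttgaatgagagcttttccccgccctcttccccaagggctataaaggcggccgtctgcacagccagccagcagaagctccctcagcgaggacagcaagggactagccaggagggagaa

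Counting the start site as 0, the matches lie at -53 to -46 and -30 to -23 in *Tnfsf10*, at -160 to -153, -20 to -13 and -14 to -7 in *Tnfsf13b*, where the last pair overlaps, and at -10 to -3 in *Tnfrsf1b*. The *Tnf* window holds none. *Tnfsf13b* and *Tnfrsf9* have 2 listed promoters each, of which only the nearest was read. The start site used for *Tnfsf13* lies 10544 bases from the 5′ end of its deposited locus. Among the 10 members, 5 windows hold AANNGAAA, against 23.9% of 32851 promoters of that length, the other two being *Fas* and *Tnfrsf9*, which were not called lower in the condition labelled *Irf1*-/-. The longer GAAANNGAAA, which contains the shorter motif, is in 3.44% of promoters and in 2 members, *Tnfsf13b* and *Tnfrsf1b*. The letters GGGNNNNNCC of NF-κB sites are in 50.8% of promoters and in 7 members, and TTCNNNGAA of STAT sites in 8.30% of promoters and in 5 members. *Tnfsf10* and *Tnfsf13b* hold neither of these, *Tnf* holds GGGNNNNNCC and not TTCNNNGAA, and *Lta* holds both. A match of letters is a description and does not show binding.

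Of 12 other ligands of the superfamily, 10 were tested in WT BMDCs, and 5 rose and 2 fell with c-di-GMP, against 20.5% of all genes called in either direction. *Cd70*, the ligand of *Cd27*, rose from 2.42 to 17.7 FPKM, *Tnfsf9* from 3.08 to 18.2 FPKM, *Tnfsf4*, which encodes OX40 ligand, from 33.8 to 134 FPKM, and *Tnfsf15* from 46.0 to 121 FPKM. In treated *Tmem173*-/- against treated WT BMDCs 6 of 8 tested were lower and 0 higher, against 26.3% of all genes called, with *Cd70* at 0.641 FPKM and *Tnfsf9* at 3.57 FPKM. *Tnfsf8*, which encodes CD30 ligand, was called in opposite directions in the other knockouts, at 77.5 FPKM in the treated condition labelled *Irf1*-/- and 11.2 FPKM in that labelled *Irf3/7*-/-, against 34.1 FPKM in treated WT. *Fasl*, the ligand of *Fas* and a product of cytotoxic lymphocytes, was at 3.01 and 2.65 FPKM in NT and CDG WT and 4.17 and 8.49 FPKM in *Irf3/7*-/- BMDCs. It was listed at 0 and 0.0240 FPKM in *Tmem173*-/- and at 0.102 and 0.110 FPKM in *Irf1*-/- BMDCs. *Fasl* and *Tnf* were both highest in the treated condition labelled *Irf3/7*-/-, where the NK cell sum was highest too. In *Tmem173*-/- BMDCs, where *Fasl* was at or below 0.0240 FPKM, *Tnf* was at 77.1 and 76.1 FPKM in NT and CDG cells. The relation of these levels was not tested.

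Of 24 other receptors, 19 were tested in WT BMDCs, and 6 rose and 1 fell, against the same 20.5% of all genes. *Cd40*, the receptor through which T cells activate dendritic cells, rose from 37.0 to 432 FPKM, *Tnfrsf11b*, a soluble decoy receptor, from 1.37 to 11.9 FPKM, *Tnfrsf26* from 3.29 to 20.4 FPKM and *Tnfrsf23* from 3.28 to 12.5 FPKM. In treated *Tmem173*-/- against treated WT BMDCs 10 of 17 tested were lower and 1 was higher, against 26.3% of all genes, with *Cd40* at 10.1 FPKM and *Tnfrsf11b* at 0.276 FPKM. In the condition labelled *Irf1*-/- 3 of 17 were lower, against 7.56% of all genes, with *Tnfrsf14* at 4.78 against 24.5 FPKM and *Tnfrsf26* at 7.54 against 20.4 FPKM. In that labelled *Irf3/7*-/- 2 of 18 were lower and 1 higher, against 7.30% of all genes, with *Tnfrsf13b* at 6.35 against 19.9 FPKM and *Tnfrsf8* at 8.39 against 3.22 FPKM.

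A fixed list of partners of the members, which does not hold every receptor of each ligand, was read in the same way. *Tnfrsf10b*, a receptor of TRAIL, stayed between 3.52 and 6.38 FPKM, and *Ltbr*, the lymphotoxin-β receptor, between 21.5 and 32.2 FPKM. Neither was called in any of the 11 comparisons. Of the receptors of APRIL and BAFF, *Tnfrsf13b* rose from 6.09 to 19.9 FPKM in WT and from 8.83 to 28.0 FPKM in the condition labelled *Irf1*-/-. It was at 6.20 and 8.39 FPKM in NT and CDG *Tmem173*-/- and at 6.76 and 6.35 FPKM in *Irf3/7*-/- BMDCs. Both of these treated knockouts were called lower than treated WT. *Tnfrsf13c*, the BAFF receptor of B cells, was at or below 1.04 FPKM, and *Tnfrsf17* at or below 0.0816 FPKM, in the 8 conditions.

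The proteins that act below the receptors were counted from 3 further lists. The shares of all genes called were 20.5% with c-di-GMP in WT BMDCs and 26.3%, 7.56% and 7.30% in treated *Tmem173*-/-, *Irf1*-/- and *Irf3/7*-/- against treated WT BMDCs. Of 10 genes of death domain signalling, 1 rose in WT BMDCs, *Cflar*, an inhibitor of caspase activation at death receptors, from 40.6 to 133 FPKM. It was at 138 and 145 FPKM in the treated conditions labelled *Irf1*-/- and *Irf3/7*-/- and at 22.6 FPKM in treated *Tmem173*-/- BMDCs, where it was called lower than in treated WT. Of 16 TRAF, IAP and ubiquitin regulators, 6 rose and 0 fell in WT BMDCs. *Rnf31*, a subunit of the linear ubiquitin ligase, rose from 16.6 to 58.8 FPKM, *Tnfaip3*, an inhibitor of NF-κB signalling, from 34.4 to 114 FPKM, *Traf1* from 64.2 to 206 FPKM and *Tnip1* from 40.1 to 108 FPKM. In treated *Tmem173*-/- BMDCs 6 of the 16 were lower than in WT, with *Rnf31* at 9.02 and *Traf1* at 37.5 FPKM, and 0 were called in either of the other treated knockouts. Of 6 genes of ligand processing and shedding, 5 were tested in WT BMDCs and 2 rose. *Furin*, a protease that cleaves some of the ligands, went from 38.6 to 80.1 FPKM in WT and was at 22.9 FPKM in treated *Tmem173*-/- BMDCs. *Adam10*, a sheddase, was higher in treated *Tmem173*-/- than in treated WT BMDCs (55.0 against 27.2 FPKM).

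The genes whose log2 levels followed each member most closely over the 8 conditions, by Pearson's r, were listed as a description. The conditions share libraries and genotypes, and many genes of the table respond to c-di-GMP. *Lag3* (r = 0.993), *H2-Q7* and *Igtp* were closest to *Tnfsf10*, and each was at its lowest in *Tmem173*-/- BMDCs, with *Lag3* at 0.224 FPKM in treated *Tmem173*-/- and 21.0 FPKM in treated WT BMDCs. *Cd83*, a maturation marker of dendritic cells (r = 0.991), was closest to *Tnfrsf9*, and *Clec4e* (r = 0.996) was closest to *Tnfrsf1b*. *Slfn4* (r = 0.988) was among the 3 closest to *Lta*, at 1.17 and 105 FPKM in NT and CDG WT BMDCs. *Il1r2* (r = 0.992) was closest to *Ltb* and *Ifitm6* (r = 0.986) to *Tnfsf13*, and both were highest in *Tmem173*-/- BMDCs. *Tnf* was less closely followed, with *Cat* at r = 0.962 and *Clcf1* at r = 0.952, and *Clcf1* was at 16.5 FPKM in the treated condition labelled *Irf3/7*-/- against at most 3.52 FPKM in the others. *Sdcbp* (r = 0.982) was closest to *Fas* and *Slc25a43* (r = 0.935) to *Tnfsf13b*. Between members the highest r was 0.928, for *Fas* and *Tnfrsf1b*.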

How the data were processed

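Libraries were made with a stranded mRNA kit and sequenced as 35-bp paired-end reads. Per the labels and methods, the authors ran Cuffdiff (version 1.06 in the submitters' processing notes), which combined the samples of each condition. They deposited 1 FPKM per gene and condition, with confidence bounds and a status. The notes name the build mm9, but 98.9% of 21519 named loci overlap their gene in GRCm38, so positions are given in GRCm38. For the Cuffdiff run, its aligner, annotation and strand setting are not given in the sources used here; an opposing-strand setting is stated for SeqMonk. A further 4 columns belong to another knockout and were left out.

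FPKM were compared as log2(FPKM + 0.1) in 11 comparisons. A gene was tested with at least 1 FPKM and status OK, and called when more than 2-fold different in FPKM + 0.1 with intervals apart. Genes outside the 10 members were named by a rule. From each list it took up to 4 called genes of the largest WT change and up to 2 per treated knockout. All of these had at least 5 FPKM. The rule also took a fixed list of direct binding partners of members, and the 3 genes most correlated with each member called at least once. Not every gene so chosen is reported here. The members and lists were chosen with earlier results of these data known. Alternatives were a pseudocount of 1 or 0.01 FPKM, a minimum of 5 FPKM or none, a fold of 1.5 or 4, the fold alone and median centring. Promoters are from RefSeq, GRCm38.p6. Scripts ran under python 3.11.15 with matplotlib 3.10.9, numpy 2.4.6 and pandas 2.3.3.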

Additional observations from a re-analysis of the deposited data

How the results depend on the processing

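No paired analysis was possible because the deposited table holds 1 value per condition, in which the numbered samples are combined, and for the same reason no sample could be left out. Of the counts of members called, 11 of 11 stayed within 1.5 times of the reported count with a pseudocount of 0.01 FPKM, with no minimum, with the fold alone and with median centring. With a pseudocount of 1 FPKM the count in NT *Irf1*-/- against NT WT BMDCs went from 2 to 1. With a minimum of 5 FPKM it went from 2 to 0 there, from 5 to 3 in NT *Tmem173*-/- against NT WT, and from 2 to 1 in the treated condition labelled *Irf3/7*-/- against treated WT. With a fold of 1.5 the count was 8 in NT *Tmem173*-/- and 2 in NT *Irf3/7*-/- against NT WT, and 4 between the treated conditions labelled *Irf1*-/- and *Irf3/7*-/-. With a fold of 4, likewise in FPKM + 0.1, the counts were 1 in WT, 2 in the condition labelled *Irf1*-/- and 2 in that labelled *Irf3/7*-/- with c-di-GMP, 4, 0 and 0 in treated *Tmem173*-/-, *Irf1*-/- and *Irf3/7*-/- against treated WT, 2 and 1 in NT *Tmem173*-/- and *Irf1*-/- against NT WT, and 1 between the last 2 treated knockouts. Median centring moved the log2 difference of *Tnfrsf9* in WT BMDCs to 1.01, past the threshold. With a pseudocount of 1 or 0.01 FPKM the 15 shares of the WT change moved by less than the intervals allow, the largest move being that of *Tnfsf10* in *Irf1*-/- BMDCs, to 117% or 155%. No called difference of a member changed sign under these alternatives. Biological variation between cultures cannot be seen in these values, and the reads behind a level near 1 FPKM, as for *Tnfsf13b*, cannot be read from FPKM, the methods giving only a targeted depth.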
